A study of Mus musculus with 10 samples.

Results

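The enzymes described here are those that conjugate foreign and endogenous compounds in liver, namely the UDP-glucuronosyltransferases (UGT), the sulfotransferases (SULT) and the glutathione transferases (GST). Members were chosen by gene symbol alone, as all listed genes beginning with *Ugt1a*, *Ugt2a*, *Ugt2b*, *Ugt3a*, *Sult* or *Mgst* or with a *Gst* symbol of the alpha, kappa, mu, omega or theta class. The rule also takes the pi class, but no pi class gene was analysed here, so that shares and ranks hold for the members analysed. This gave 59 of the 15126 genes listed, of which 20 are UGT, 19 are SULT and 20 are GST. Of these, 47 had a mean of at least 1 CPM, which is the reads of a gene scaled to the total of reads counted on genes, as had 11041 genes in all. RNA-seq was done on livers of *db/db* mice, which lack a working leptin receptor and become obese and diabetic, at 10 weeks of age. The study's methods describe the purchased mice as male, and the labels used here give no sex. The 5 livers described received a control vector of adeno-associated virus 8 encoding eGFP (AAV8-Control) by tail vein and were taken 5 weeks later. The promoter of the vector is not given in the sources used here. The sample labels name liver as the tissue, yet they also name primary hepatocytes and describe an adenovirus in culture, so that the labels disagree with each other. Nothing in the labels says whether each library is a separate animal, and the SD given is the spread between these 5 libraries.

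Conjugation makes lipophilic compounds water-soluble so that they can leave in bile or urine. UGT enzymes sit in the endoplasmic reticulum and add glucuronic acid from UDP-glucuronate, SULT enzymes are cytosolic and add sulfate from PAPS, and GST enzymes add glutathione to electrophiles such as lipid aldehydes and epoxides. In mouse liver many of these genes respond to the nuclear receptors CAR and PXR, to the aryl hydrocarbon receptor or to the oxidative stress regulator Nrf2, and several SULT genes differ between males and females.

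Each library held between 19499795 and 35498596 reads counted on genes. Hepatocyte markers were abundant in all 5, with *Alb* at a mean of 97164 CPM, and the summed Kupffer cell markers ranged from 96.0 to 192 CPM. Markers of T and B cells summed to at most 3.32 CPM. In whole tissue, fewer cells of a type and less RNA per cell cannot be told apart.

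Together the conjugation enzymes averaged 17386 ± 794 CPM (SD, n = 5). Reads on GST genes were 73.5% of this total, on UGT genes 20.3% and on SULT genes 6.24%, without correction for gene length. Membrane GST genes held 28.1%, mu class genes 24.0% and alpha class genes 15.1%, so that a few GST genes made up most of these reads. The *Ugt2* and *Ugt3* genes held 17.9% and the *Ugt1a* genes 2.40%. These shares rest on reads counted for 1 gene only, which leaves out reads on the exons that all *Ugt1a* genes share, so that *Ugt1a* expression is undercounted in them.

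Levels of different genes were compared per kilobase of exon that no other gene shares. *Mgst1* had the highest level at 2401 ± 120 CPM per kb and *Gstm1* followed at 1967 ± 499 CPM per kb (SD, n = 5), with ranges between livers that overlapped, so that their order is not settled. *Gsta3* came next at 558 ± 31.0 CPM per kb, below *Gstm1* in every liver. From there on each gene overlapped its neighbour in the order, as with *Gstm3* at 488 ± 179 and *Ugt1a1* at 396 ± 53.8 CPM per kb. The highest sulfotransferase was *Sult1a1* at 248 ± 28.5 CPM per kb. The 12 members under 1 CPM, which were *Sult2a4*, *Sult2a6*, *Sult2b1*, *Sult4a1*, *Sult6b1*, *Ugt1a2*, *Ugt1a8*, *Ugt1a10*, *Ugt2a2*, *Ugt2b38*, *Mgst2* and *Gsto2*, had 0 to 26 reads per library.

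**Figure D1:**
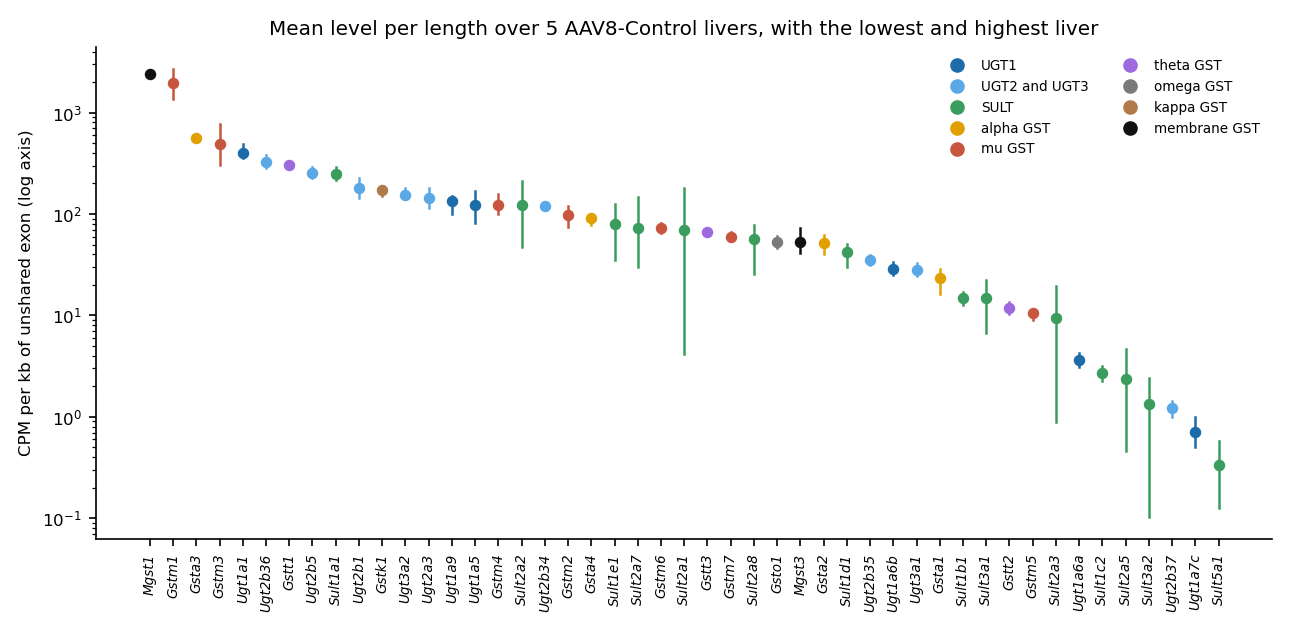
Mean level of the 47 conjugation enzymes over 1 CPM in the 5 AAV8-Control livers, as CPM per kb of exon shared with no other gene on a log axis, ordered from the highest and coloured by enzyme class. Vertical lines run from the lowest to the highest liver. *Mgst1* and *Gstm1* lead with 2401 and 1967 CPM per kb, and the longest line above 10 CPM per kb belongs to *Sult2a1*.

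Counting was limited for some of these genes by shared sequence. All *Ugt1a* genes share their last exons on chromosome 1, so that their levels per kilobase rest on the unshared part. This part was 385 bases for *Ugt1a1*, beside 879 for *Ugt1a9*, as more of *Ugt1a1* overlaps exons of other genes. The overlap was read from GENCODE release M21 and was not checked in the annotation used for counting, so that the level per kilobase of *Ugt1a1* is uncertain. Of all stretches of 50 bases (the read length) in the exons of *Gsta1*, 9.50% occurred in no other gene, and the share was 19.8% for *Ugt1a1*, 20.2% for *Ugt1a6b*, 37.9% for *Sult2a2* and 50.2% for *Gsta2*. It was 71.2% for *Gstm3*, 81.1% for *Gstm1* and 100% for *Mgst1* and *Gstt1*. As uniquely aligned reads were counted, the levels of the genes with low shares are uncertain.

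The spread between livers differed greatly from gene to gene. Measured by the coefficient of variation (SD over mean), the median over the 47 members was 15.3%, beside 10.6% over all 11041 genes. Of the members 11 exceeded 30%, which is 23.4% of them, beside 6.39% of all genes. Of these 11, 10 were sulfotransferases and the remaining one was *Gstm3*. Some of these sulfotransferases were near the filter. With a library left out the mean was 0.992 to 1.54 CPM for *Sult3a2*, 1.21 to 1.70 CPM for *Sult5a1* and 1.86 to 2.97 CPM for *Sult2a5*. With any 1 library left out the count was 9 to 13 members, 9 to 10 of them sulfotransferases. Without replicate 3 *Gstm3* was at 22.6% and *Sult2a8* at 20.99%, and without replicate 2 *Sult3a1* was at 29.0%. With all 5 libraries no UGT gene exceeded 30%, and the nearest to it were *Ugt1a7c*, a gene near 1 CPM, at 29.2% and *Ugt1a5* at 27.9%. *Ugt1a7c* exceeded 30% without replicate 1 or replicate 4, *Ugt1a5* without replicate 2 or replicate 5, and *Gsta1*, a GST of the alpha class, without replicate 1 or replicate 5. The median was 46.5% for the 14 SULT genes over 1 CPM, 13.3% for the 15 UGT genes and 10.2% for the 18 GST genes.

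**Figure D2:**
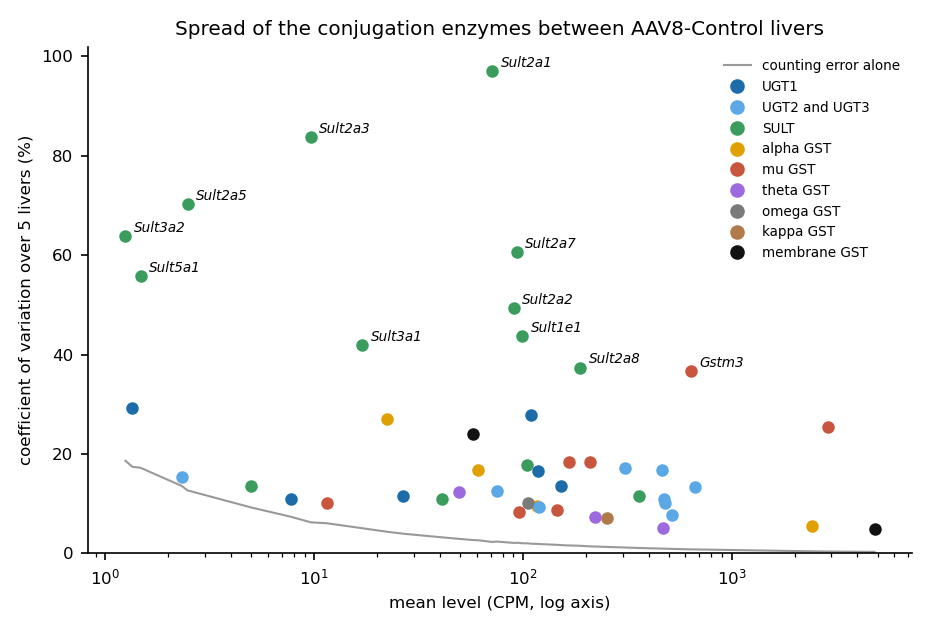
Coefficient of variation over the 5 AAV8-Control livers against mean level in CPM (log axis) for the 47 conjugation enzymes over 1 CPM, coloured by class, with the names of those over 30%. The grey line is the variation that counting of reads alone would give. *Sult2a1* lies highest at 97.1%, followed by *Sult2a3* at 83.8% and *Sult2a5* at 70.2%.

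*Mgst1* (ENSMUSG00000008540, forward strand of chromosome 6, 138140316 to 138156755) encodes the microsomal enzyme of endoplasmic reticulum and outer mitochondrial membrane. AAV8-Control replicates 1 to 5 had 4955, 4885, 4632, 4553 and 5142 CPM of *Mgst1*. The livers lay close together, and its coefficient of variation of 4.98% was the lowest of all members over 1 CPM. *Mgst3*, a membrane enzyme of the same family, was far lower at 57.5 ± 13.8 CPM, with its highest value of 80.6 CPM in replicate 3. The 250 bases before the upstream start of *Mgst1* are shown because it had the highest mean CPM of all members. They and the sequences further on were read from the RefSeq promoter table of GRCm38.p6, which held 62 promoters of 51 of the 59 members. Capitals mark any of 4 short motifs, searched on both strands: the antioxidant response element core TGACNNNGC, the xenobiotic response element core GCGTG, the TATA box TATAAA and the HNF1 core GTTAAT. All sequences are written 5′ to 3′. That of *Mgst1* holds the antioxidant response element core on the opposite strand.
Mgst1, chr6:138140277-138140526, forward strand: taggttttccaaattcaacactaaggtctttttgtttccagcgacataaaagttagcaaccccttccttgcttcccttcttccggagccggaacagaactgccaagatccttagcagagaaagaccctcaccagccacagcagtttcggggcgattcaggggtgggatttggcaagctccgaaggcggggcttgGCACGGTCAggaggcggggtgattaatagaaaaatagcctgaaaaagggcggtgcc

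The mu class glutathione transferases are dimeric cytosolic enzymes whose genes form a cluster on chromosome 3 of GRCm38. All 7 were over 1 CPM, and their summed level averaged 4166 ± 1022 CPM, from 2925 CPM in replicate 4 to 5638 CPM in replicate 3. *Gstm1* (ENSMUSG00000058135, reverse strand, 108012255 to 108017973) was by far the most abundant, at 3140.1, 2452, 3931, 1987 and 2977 CPM in replicates 1 to 5. *Gstm3* (ENSMUSG00000004038, reverse strand, 107963696 to 107969283), known to be inducible through Nrf2 in mouse liver, was at 701, 527, 1013, 400.4 and 559 CPM. In both genes replicate 3 was the highest liver and replicate 4 the lowest. *Gstm1* and *Gstm3* share some sequence. As only uniquely aligned reads were counted, reads on the shared stretches are missing from both levels.

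*Gstm2* (ENSMUSG00000040562, 107981702 to 107986453) was at 191, 163, 200.04, 126 and 150 CPM in replicates 1 to 5, and *Gstm4* was at 203, 179, 267, 173 and 226 CPM. These had the same highest and lowest livers as *Gstm1*. *Gstm6* (ENSMUSG00000068762, 107938847 to 107943749) was at 162, 149, 128, 139 and 150 CPM. Here replicate 3 was the lowest, unlike in *Gstm1* and *Gstm3*, and the same was so for *Gstm7* at 95.3 ± 7.87 CPM. *Gstm5*, the least abundant of the class, was at 11.5 ± 1.18 CPM. The coefficient of variation was 36.6% for *Gstm3* and 25.4% for *Gstm1* but 8.73% for *Gstm6* and 8.26% for *Gstm7*. That of *Gstm3* rested on replicate 3, without which it was 22.6%.

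**Figure D3:**
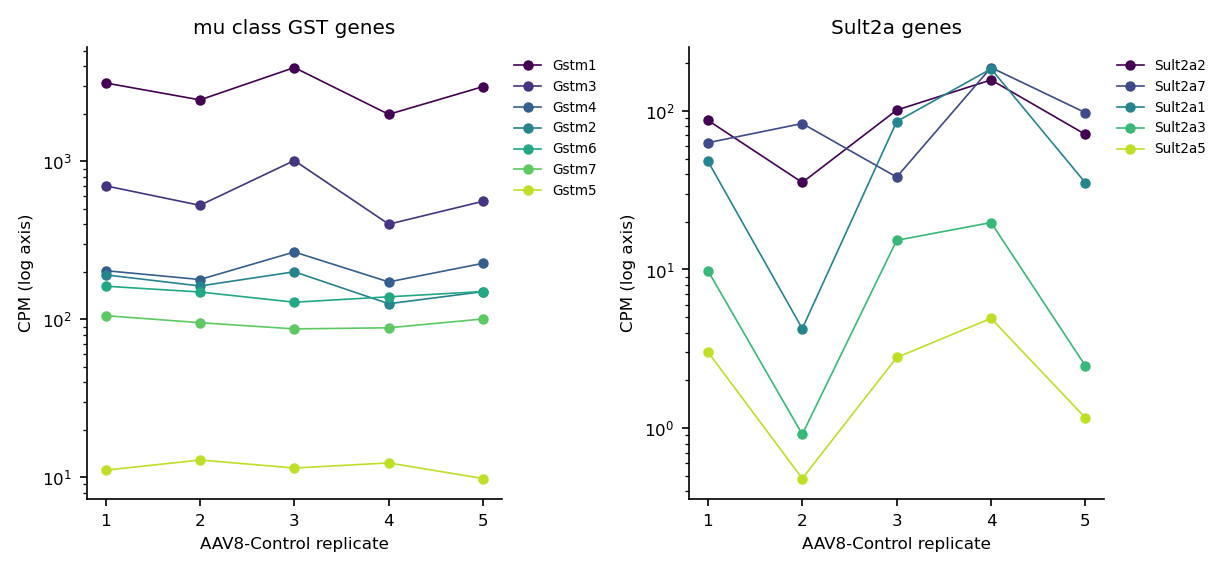
CPM on a log axis of the 7 mu class GST genes (left) and 5 *Sult2a* genes (right) in each AAV8-Control liver, with lines that join the livers of a gene for legibility only. *Gstm3* peaks in replicate 3 at 1013 CPM, while the *Sult2a* genes shown peak in replicate 4, where *Sult2a1* reaches 184 CPM. *Sult2a8* is also over 1 CPM but is not shown, and it was highest in replicate 5 at 259 CPM.

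The promoters of a gene of the class that varied most and of one that varied little are shown for comparison, together with that of *Gstm1*. *Gstm1* and *Gstm6* have several starts, of which 1 is shown.
Gstm1, chr3:108017819-108018068, reverse strand: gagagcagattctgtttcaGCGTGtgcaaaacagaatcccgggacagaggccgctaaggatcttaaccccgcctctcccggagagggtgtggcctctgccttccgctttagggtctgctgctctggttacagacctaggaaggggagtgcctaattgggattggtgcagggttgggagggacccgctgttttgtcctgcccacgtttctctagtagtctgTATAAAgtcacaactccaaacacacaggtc
Gstm3, chr3:107969175-107969424, reverse strand: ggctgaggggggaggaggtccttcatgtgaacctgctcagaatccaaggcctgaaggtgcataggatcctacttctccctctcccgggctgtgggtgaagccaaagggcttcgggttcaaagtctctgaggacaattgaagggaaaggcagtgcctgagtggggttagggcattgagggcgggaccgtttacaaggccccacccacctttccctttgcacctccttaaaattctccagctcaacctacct
Gstm6, chr3:107943735-107943984, reverse strand: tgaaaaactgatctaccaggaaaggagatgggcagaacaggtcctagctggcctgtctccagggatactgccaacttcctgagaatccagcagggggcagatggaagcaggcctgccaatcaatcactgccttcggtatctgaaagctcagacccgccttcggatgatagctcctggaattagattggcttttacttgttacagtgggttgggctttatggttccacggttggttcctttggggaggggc

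The window of *Gstm1* held a GCGTG on its 5′ side and a TATAAA near its start, and the windows of *Gstm3* and *Gstm6* held none of the 4 motifs. After global alignment *Gstm1* and *Gstm3* were identical at 61.6% of the 250 bases, the highest of the mu class pairs. With the other start of *Gstm1* they were identical at 53.6%. The other pairs of the class lay between 48.0% and 58.4%, and no unrelated promoters were aligned for comparison. TGACNNNGC was found in 10.2% of all 32851 promoters of this length and in 4 of the 62 member promoters, those of *Gsta3*, *Gstm5*, *Gstm7* and *Mgst1*. GCGTG was in 28.2% of all promoters and 10 member promoters, TATAAA in 12.4% and 11, and GTTAAT in 6.43% and 14. A match describes these letters only.

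Known Nrf2 targets read beside the mu class included *Srxn1*, which encodes sulfiredoxin, and *Nqo1*, a quinone reductase. *Srxn1* was at 84.9, 83.2, 121, 65.6 and 86.2 CPM in replicates 1 to 5. *Nqo1* was at 41.6, 28.4, 48.5, 28.6 and 31.2 CPM. In both replicate 3 was the highest liver, as for *Gstm3*, and replicate 4 was the lowest for *Srxn1* and next to the lowest for *Nqo1*. Of other known Nrf2 targets, *Txnrd1*, a thioredoxin reductase, was highest in replicate 1, and *Gclc* and *Gclm* of glutathione synthesis were highest in replicate 5, with *Gclm* at 179 CPM in replicate 4 and 174 CPM in replicate 3. *Hmox1*, which degrades heme, was at 25.9 ± 3.07 CPM and highest in replicate 3, as was *Gsr*, glutathione reductase, at 88.9 CPM. With 5 livers no correlation was computed. *Nfe2l2*, which encodes Nrf2, was at 119 ± 14.3 CPM, with its highest value of 139 CPM in replicate 5.

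Of the alpha class, *Gsta3* (ENSMUSG00000025934, chromosome 1, 21240589 to 21265661) was the most abundant at 2491, 2243, 2324, 2562 and 2502 CPM in replicates 1 to 5, a narrow range. *Gsta4*, whose enzyme conjugates lipid aldehydes, was at 116 ± 11.1 CPM, *Gsta2* at 61.2 ± 10.3 CPM and *Gsta1* at 22.3 ± 6.06 CPM, the last with few stretches of its own. The theta class enzyme *Gstt1* (ENSMUSG00000001663, reverse strand of chromosome 10, 75783813 to 75798584), which acts on small halogenated compounds, was at 448, 499, 442, 476 and 484 CPM. Its neighbours *Gstt3* and *Gstt2* were lower at 221 ± 16.2 and 49.6 ± 6.09 CPM. The sum of the theta class varied least of the classes with several members, from 730 to 760 CPM. *Gstk1*, the kappa enzyme of mitochondria and peroxisomes, was at 253 ± 18.2 CPM, and *Gsto1*, the omega enzyme that reduces dehydroascorbate, at 106 ± 10.8 CPM.

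The glucuronosyltransferases summed to 3521 ± 336 CPM, from 3165 CPM in replicate 3 to 3951 CPM in replicate 4. *Ugt1a1* (chromosome 1, 88211959 to 88218997), whose enzyme glucuronidates bilirubin, was at 146, 140.02, 138, 189 and 149 CPM in replicates 1 to 5, with replicate 4 above the others. *Ugt1a9* was at 118 ± 19.6 CPM. *Ugt1a5*, encoded in the same gene complex, was at 87.2, 112, 150.1, 73.2 and 126 CPM, and for it replicate 4 was the lowest liver and replicate 3 the highest. *Ugt1a6b*, *Ugt1a6a* and *Ugt1a7c* were at 26.8 ± 3.11, 7.75 ± 0.853 and 1.35 ± 0.393 CPM.

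The *Ugt2b* genes on chromosome 5 encode enzymes that glucuronidate steroids and many drugs. Of the 7 listed, 6 were over 1 CPM and the exception was *Ugt2b38*. All 7 together summed to 2243 ± 245 CPM. *Ugt2b36* had the highest level per length at 324 ± 43.0 CPM per kb, and was at 603, 628, 585, 794 and 721 CPM in replicates 1 to 5. *Ugt2b5* followed at 254 ± 27.9 and *Ugt2b1* at 181 ± 30.4 CPM per kb. In these 3 genes replicates 4 and 5 were the highest livers and replicate 3 the lowest. *Ugt2b34* was at 517 ± 40.4 CPM, *Ugt2b35* at 119 ± 11.1 CPM and *Ugt2b37* at 2.32 ± 0.355 CPM. Outside chromosome 5, *Ugt3a2*, of a family that uses sugars other than glucuronic acid, was at 478 ± 48.5 CPM.

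Of the sulfotransferases, *Sult1a1* (ENSMUSG00000030711, reverse strand of chromosome 7, 126672865 to 126676432), the phenol sulfotransferase, was the most abundant at 371, 313, 325, 416 and 367 CPM in replicates 1 to 5. Its coefficient of variation of 11.5% was close to the median of all genes. *Sult1e1*, which sulfates estrogens, was at 123.5, 74.4, 97.9, 156 and 43.9 CPM, with a coefficient of variation of 43.7%. *Sult1d1* was at 105 ± 18.7 CPM, *Sult1b1* at 38.2 to 47.4 CPM in 4 livers and 35.6 CPM in replicate 3 and *Sult1c2* at 5.01 ± 0.679 CPM. The 250 bases before the start of *Sult1a1* held 1 GTTAAT and are shown as those of the highest sulfotransferase.
Sult1a1, chr7:126676419-126676668, reverse strand: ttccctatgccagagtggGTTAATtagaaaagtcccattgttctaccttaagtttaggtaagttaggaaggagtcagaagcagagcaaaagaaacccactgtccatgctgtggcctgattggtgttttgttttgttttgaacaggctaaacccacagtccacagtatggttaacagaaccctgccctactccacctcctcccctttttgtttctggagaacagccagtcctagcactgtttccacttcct

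The *Sult2a* genes on chromosome 7 encode hydroxysteroid sulfotransferases, which sulfate steroids and bile acids. Several of these genes, though not all, are known to be higher in female than in male mouse liver. With all 5 libraries the 6 *Sult2a* genes over 1 CPM each had a coefficient of variation over 30%, with a median of 65.4%. That of *Sult2a8* was 37.4% and fell to 20.99% without replicate 3. *Sult2a1* (ENSMUSG00000078798, 13796246 to 13837409) was at 48.2, 4.24, 85.5, 184 and 35.1 CPM in replicates 1 to 5. The highest and lowest livers differed 43.4-fold, and only 0.0815% of all genes over 1 CPM had a larger coefficient of variation. Without replicate 4 the mean of *Sult2a1* was 43.3 CPM in place of 71.4 CPM.

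*Sult2a2* was at 87.1, 35.3, 101, 157 and 71.0 CPM and *Sult2a3* at 9.85, 0.915, 15.3, 19.8 and 2.46 CPM in replicates 1 to 5. *Sult2a5* ranged from 0.481 to 4.92 CPM. In these genes, as in *Sult2a1*, replicate 4 was the highest liver and replicate 2 the lowest. *Sult2a7* was at 62.9, 83.2, 38.2, 187 and 97.2 CPM, and *Sult2a8* at 175, 176, 83.3, 247 and 259 CPM, and for both replicate 3 was the lowest. The coefficient of variation of *Sult2a7* was 60.6%, and 36.4% without replicate 4. *Sult2a1* and *Sult2a2* share 29.5% of the 50-base stretches of *Sult2a1* and 41.3% of those of *Sult2a2*. Of the stretches of *Sult2a5* 22.2% are shared with *Sult2a2*, and of those of *Sult2a3* 4.95% with *Sult2a5*. As only uniquely aligned reads were counted, reads on such shared stretches are missing from the levels of these genes. *Sult3a1* was at 20.7, 7.70, 12.6, 18.1 and 26.1 CPM and *Sult3a2* at 1.54, 0.0963, 0.986, 1.35 and 2.27 CPM. Both were lowest in replicate 2, like *Sult2a1*, and highest in replicate 5, like *Sult2a8*.

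Promoters of *Sult2a3* and *Sult2a5*, identical at 200 of 250 bases after global alignment, are shown because the genes lie apart on chromosome 7 yet both hold 2 HNF1 cores, the first read as ATTAAC on the opposite strand. That of *Sult2a5* also holds a TATA box.
Sult2a3, chr7:14123049-14123298, reverse strand: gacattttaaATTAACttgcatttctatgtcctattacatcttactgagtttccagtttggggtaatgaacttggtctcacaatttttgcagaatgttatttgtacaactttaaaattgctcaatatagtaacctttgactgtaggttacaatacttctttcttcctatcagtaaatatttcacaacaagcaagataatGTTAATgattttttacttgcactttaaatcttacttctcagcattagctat
Sult2a5, chr7:13623717-13623966, forward strand: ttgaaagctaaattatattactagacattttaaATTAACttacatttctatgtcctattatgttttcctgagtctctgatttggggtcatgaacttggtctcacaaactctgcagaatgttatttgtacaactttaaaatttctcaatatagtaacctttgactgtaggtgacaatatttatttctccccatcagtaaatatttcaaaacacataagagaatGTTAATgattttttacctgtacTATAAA

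Several other genes known to differ between male and female mouse liver also varied between these livers. *Cyp2b13*, a female-biased cytochrome, was at 340, 154, 328, 482 and 187 CPM in replicates 1 to 5, highest in replicate 4 and lowest in replicate 2 like *Sult2a1*. *Cyp2b9*, another female-biased cytochrome, was at 613 ± 52.6 CPM, highest in replicate 4 and lowest in replicate 5. *Cyp4a12a* and *Mup20*, which are male-biased, were at 225 ± 89.6 and 44.8 ± 15.9 CPM, and the latter was lowest in replicate 3. A coefficient of variation over 30% was found in 7 of the 10 male-biased genes over 1 CPM, beside 6.39% of all genes. It was also found in 5 of the 7 female-biased genes over 1 CPM, a list reported here without 1 of its genes. The part of these genes in the spread of the *Sult2a* genes was not tested.

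AAV8-Control replicate 4 was the highest liver for 20 of the 47 members (42.6%) and the lowest for 9 (19.1%), beside 16.4% and 31.7% of all genes over 1 CPM. Replicate 3 was the highest for 11 members (23.4%) and the lowest for 18 (38.3%), beside 15.8% and 22.0% of all genes. Replicate 1 was the highest for 5 members (10.6%), beside 37.8% of all genes. The livers thus did not contribute evenly among all genes either, and these shares were not tested.

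Lists of 96 other genes were read beside the members, of which 89 were over 1 CPM. They hold genes that supply, carry or regulate the conjugation reactions, genes known to respond to the same receptors, and other transferases of small molecules. Of these, 5 (5.62%) had a coefficient of variation over 30%, near the 6.39% of all genes, and their median was 11.3%. *Gclc*, the catalytic subunit of the first enzyme of glutathione synthesis, was at 385, 402, 418, 393 and 451 CPM in replicates 1 to 5, and *Gclm*, its partner subunit, at 174 ± 8.68 CPM. *Cth*, which makes cysteine for glutathione from cystathionine, was at 883, 739, 425, 1098 and 701 CPM, and was lowest in replicate 3, where *Gstm3* was highest. For glucuronidation, *Ugdh*, which makes UDP-glucuronate, was at 218 ± 15.9 CPM. For sulfation, *Papss2* was at 315 ± 47.2 CPM and *Papss1* at 14.3 ± 1.79 CPM, both of which make PAPS.

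Of the receptors, *Nr1i3*, which encodes CAR, was at 132, 113, 100.5, 183 and 126 CPM, highest in replicate 4, and *Nr1i2*, which encodes PXR, was at 70.4 ± 3.50 CPM. *Cyp2b10*, a CAR readout, was at 158 ± 22.4 CPM, with its highest value in replicate 1. *Ahr* was at 30.6 ± 4.97 CPM and *Hnf4a* at 618 ± 67.1 CPM. Among exporters of conjugates, *Abcc2* of the bile canaliculus was at 710 ± 65.6 CPM and *Abcc3* of the sinusoidal side at 389 ± 32.1 CPM. *Abcc4* was at 43.8, 21.9, 51.2, 26.8 and 35.5 CPM, with a coefficient of variation of 33.5%. Outside the rule for members, *Gstz1* of the zeta class was at 1180 ± 23.5 CPM and *Nnmt*, which methylates nicotinamide, at 130 ± 24.0 CPM.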

How the data were processed

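The analysis used liver RNA-seq of *db/db* mice, with the 5 AAV8-Control libraries. The remaining libraries and 1 gene of a list are not reported here, and with 1 group no test between groups was made. Single reads of 50 bases were aligned by the authors with STAR (2.0.4b in the submitters' processing notes) to GRCm38.p2 and counted on genes with featureCounts 1.4.5, and the authors deposited CPM scaled to all counted reads. Division by the CPM of 1 read gave whole reads for 100% of values (tolerance 0.02), and 0 columns were left unmapped. The libraries held 19499795 to 35498596 reads on genes. The table has 15236 lines for 15126 genes.

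Genes were kept when their 5 libraries averaged 1 CPM or more. The coefficient of variation is 100 times SD over mean of CPM, and the share that counting gives is the Poisson value from the reads. Positions and exons came from GENCODE release M21 (GRCm38), which matched 59 of the 59 members, and promoters from RefSeq (GRCm38.p6). The DESeq2 size factors named below were checked on simulated counts that had counting error only and a known factor for each library. That check covers neither the spread between the real libraries nor the TMM factors.

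Members and lists were chosen with earlier results of these data known. Members named by rule are the 3 per class with the highest level per length and the 5 with the widest range between libraries on the log2(CPM + 1) scale. All other genes given with values were named after their values were seen. Alternatives were no filter, at least 10 reads in every library, TMM factors of edgeR 4.0.16, size factors of DESeq2 1.42.0 (R 4.3.3), and each library left out. No libraries were duplicates, as their counts differed with a chi-square of at least 17.9 for each degree of freedom.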

Additional observations from a re-analysis of the deposited data

Results flagged for a closer look

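In 2 of the 47 members examined, 1 of the 5 livers stood far from the rest by Dixon's criterion, and chance gives about 1 in 20. AAV8-Control replicate 4 had 189 CPM of *Ugt1a1* beside 138 to 149 CPM in the other livers, and 562 CPM of *Ugt3a2* beside 434 to 467 CPM. No cause was tested.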

How the results depend on the processing

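Of the 59 members, 47 were over the filter of 1 CPM, 46 had at least 10 reads in every library, and 46 to 47 were over 1 CPM with a library left out. With TMM or DESeq2 factors the summed level of all members was 17382 CPM in place of 17386 CPM, and it ranged from 17222 to 17680 CPM with a library left out. That of the mu class was 4157 or 4156 CPM with these factors and 3797 to 4476 CPM with a library left out, and that of the *Sult2a* genes was 370 to 495 CPM, the lowest without AAV8-Control replicate 4. Without AAV8-Control replicate 4 the mean of *Sult2a1* was 43.3 CPM in place of 71.4 CPM. The coefficient of variation of *Sult2a1* was 99.3% with TMM and 99.5% with DESeq2 factors, and 76.3% to 117% with a library left out. No paired analysis was possible because 1 group is described and no test between groups was made. Alternatives that concern such a test were not run.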
